A study of Emberiza melanocephala with 4 samples.

Results

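Loci with several listed spliced transcripts were followed in 4 RNA libraries labelled as testis of the black-headed bunting (Emberiza melanocephala). The bunting is a migratory songbird that breeds seasonally. Such transcripts can differ in their ends only and need not be spliced differently. The birds were wild-caught, and each of 4 testicular states has 1 library. The states run through the season as sensitive, then early and late stimulated, and last refractory. The labels give no age, light regime, number of birds per library or other treatment. No state was replicated, so every difference below compares libraries, not states, and carries no p-value. Reads had been placed on the genome of another songbird, the collared flycatcher (Ficedula albicollis, FicAlb_1.4), and positions are given on its scaffolds.

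The loci were chosen by the transcripts listed in 1 library. A locus belonged to the group when the late stimulated library, the deepest, listed 2 or more transcripts for it that each had 2 or more exons. This held for 917 of the 18791 loci listed there, or 4.88%, and for 8.70% of the 10535 loci with any spliced transcript. The listings that chose these loci come from the late stimulated library, so their number and their levels in it are descriptions. The 917 loci held 2056 spliced transcripts. They came to 2053 distinct intron chains, a chain being the ordered set of all introns of a transcript. At 3 loci the transcripts shared 1 and the same chain, which leaves 914 with different chains. Most loci, 747, had 2 spliced transcripts, 132 had 3, 26 had 4, 10 had 5 and 2 had 6.

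Alternative splicing lets a gene give several RNAs from the same exons. Internal exons can be kept or skipped, 2 exons can exclude each other, and introns can start or end at shifted splice sites. Transcripts can also begin in different first exons, which reflects different promoters, or stop in different last exons, which sets the end of the protein and the 3′ untranslated region. Among vertebrate tissues, brain, retina and testis are known for particularly rich alternative splicing. An internal exon whose length is divisible by 3 can be added or left out without shifting the reading frame behind it.

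The total aligned bases ranged from 120.5 Mb in the sensitive library to 428.4 Mb in the late stimulated library, and the number of loci found by the same rule followed the same order. It was 182 loci (3.17% of spliced loci) in the sensitive, 530 (6.13%) in the early stimulated, 917 in the late stimulated and 772 (7.44%) in the refractory library. The files list an unannotated transcript only from a coverage of 2.5 upwards, which is 20.8 FPKM in the sensitive, 12.5 FPKM in the early stimulated, 5.84 FPKM in the late stimulated and 7.86 FPKM in the refractory library (FPKM, sequenced fragments scaled to transcript length and library size), and mostly above about 10% of the strongest transcript of its locus. The lowest such share was 11.04% in the sensitive, 10.5% in the early stimulated, 6.59% in the late stimulated and 6.80% in the refractory library, and the listing limits given below use 10%. An unlisted chain is therefore not a measured 0. The named marker genes went against the labelled tissue in the 3 later libraries, so testis is used here as their label only. Of 7 germ cell markers 3 were named in any file, with sums of 2.63 to 12.9 FPKM per library, and DDX4, DAZL, PIWIL1 and SYCP3 were not named. Only 8.33% of the spliced transcripts of the late stimulated library matched the flycatcher annotation, so a marker without a name is not shown to be absent. Of 4 Sertoli cell markers 1 was named, at 3.81 FPKM in the sensitive library, and of 4 Leydig cell markers 0. All 6 photoreceptor and all 6 neuronal markers were named in 1 or more libraries. Of the photoreceptor markers, 4 were named in the early stimulated, 6 in the late stimulated and 6 in the refractory library. Of the neuronal markers, 3, 4 and 4 were named in the same order. The photoreceptor sum was 380 to 722 FPKM and the neuronal sum 274 to 453 FPKM in the 3 later libraries. Neither list had a named transcript in the sensitive library. The 4 smooth muscle and mesenchyme markers summed to 46.2 to 52.4 FPKM in the later libraries and to 596 FPKM in the sensitive library. The header of the file labelled sensitive also names its library by another abbreviation (sd) than its title (SE), and whether it holds the labelled sample was not tested. Every comparison with the sensitive library rests on that label. In bulk tissue, fewer cells of a type and less RNA per cell cannot be told apart.

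Loci with several isoforms had higher levels and were longer than loci with 1 spliced transcript. The rule asks for 2 or more listed transcripts and so favours loci of high coverage. Level, longest chain and span are also taken over several transcripts at the members, so the contrasts in this paragraph are descriptions only. Their median level in the late stimulated library was 60.2 FPKM, against 17.4 FPKM for the 9618 loci with 1 spliced transcript. Loci just inside the rule, with exactly 2 spliced transcripts, had a median of 52.4 FPKM. The longest chain had a median of 7 exons at the members and 4 exons at the others, and the loci spanned a median of 14.4 kb and 5.27 kb. With all spliced loci put into 5 groups of equal size by coverage in that library, 18.7% were members in the group of highest coverage and 1.52% in the group of lowest coverage. Only 198 of the 917 loci could be tied to a flycatcher gene, 164 of them with a gene symbol, and 719 have no name. Of the named loci, 152 carried the name on a transcript of their own and 46 took it from a transcript of another library that shared an intron.

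Within a locus, the leading chain, defined as the chain with the highest FPKM in the late stimulated library, held a median of 64.6% of the FPKM of all spliced transcripts there (28.0% to 99.8%). It held 80% or more at 177 loci and less than 50% at 86. Choosing the leading chain in the late stimulated library by itself favours a higher share there than in other libraries. The shares of leading chains and of their forms given below are therefore descriptions. The locus of CASK, a scaffold kinase of synapses, and an unnamed locus on scaffold JH603172.1 (9480739 to 9548850) had 6 chains each, the most of any locus. At CASK the leading chain of 26 exons held 28.0% of 195 FPKM in the late stimulated library.

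Among 84 textbook examples of alternatively spliced genes, 16 had a named spliced locus in the late stimulated library and 10 of these were members, or 62.5%. Over all 1007 spliced loci with a symbol, 16.3% were members. The list was written with earlier results of these data known and holds genes picked for having several isoforms. Membership also rose with coverage, so this contrast is a description only. The members were ACTN1, CASK, DCLK1, GPM6B, GRIA4, H2AFY, HNRNPA2B1, HNRNPDL, PTBP2 and SRSF6, while the others, among them CDC42 and SRSF5, had 1 spliced transcript each. Of 27 regulators of splicing in neurons and other tissues, 2 were named at spliced loci, and ELAVL4, an RNA-binding protein of neurons, was a member with 2 chains and 162 FPKM in the late stimulated library.

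Each further chain was set against the leading chain of its locus. At 307 loci (33.5%) the chains differed in length only, by ends that lay inside each other's exons or by 1 chain being contained in another. Alternative first exons were found at 231 loci, alternative last exons at 196, and either at 346 (37.7%). An internal event was found at 293 loci (32.0%). Skipped internal exons were the most frequent of these with 126 loci, followed by alternative acceptors with 80, retained introns with 60, alternative donors with 35 and mutually exclusive exons with 19. At 120 loci no 2 transcripts shared an intron, so that a share there may compare neighbouring or overlapping transcription units. In the late stimulated library 81 loci had both an alternative first and an alternative last exon.

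**Figure D1:**
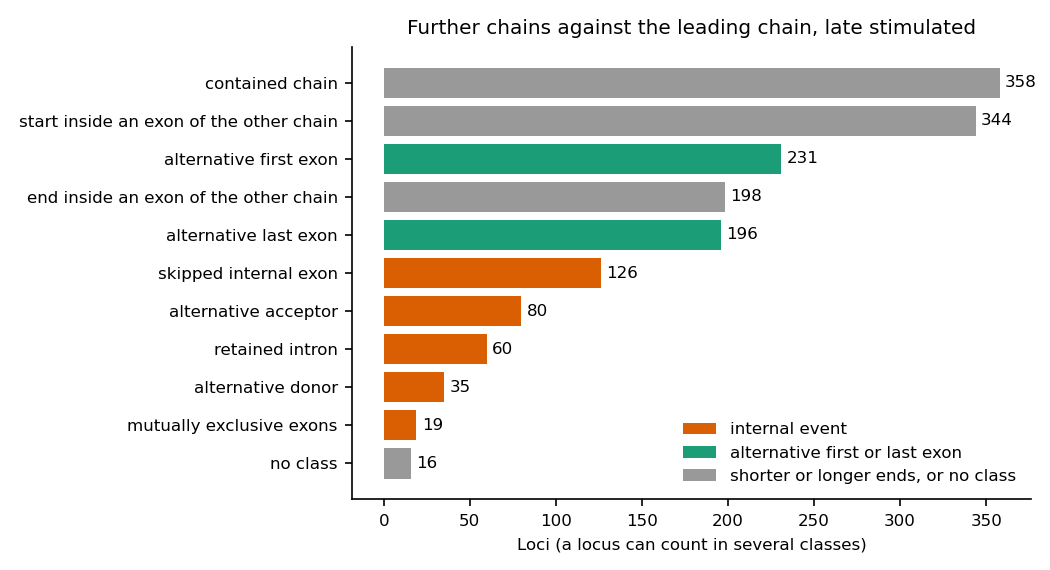
Number of loci (x axis) at which a further chain differed from the leading chain in the way named on the y axis, in the late stimulated library. Chains that end inside one another's exons and contained chains (grey) were more frequent than each internal event (orange); 231 loci had an alternative first and 196 an alternative last exon (green).

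The skipped exons differed from other exons in length, a property that the rule did not use. There were 160 distinct skipped internal exons, and 122 of them, 76.25%, had a length divisible by 3 (95% Wilson interval 69.1% to 82.2%, counting error only). Among the 36678 other internal exons of the same library the share was 39.2% (38.7% to 39.7%), and among the 6415 other internal exons of the member loci it was 40.03%. Skipped exons were shorter, with a median of 81 bases against 116 bases for all other internal exons. Very short exons were frequent among them: 17 of the 160, or 10.6%, had 27 bases or less, against 0.624% of the other internal exons. Of these 17 microexons, 15 had a length divisible by 3. Microexons are known from vertebrates as exons that are mostly included in neurons.

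Alternative acceptors mostly lay close together. Of 80 pairs of acceptor sites, 36 (45.0%) lay exactly 3 bases apart, so that the choice adds or removes the bases of 1 codon, and 55 were apart by a multiple of 3. Such tandem acceptors are a known form of splice variation in vertebrates. Among 35 pairs of donor sites 1 was 3 bases apart and 22 by a multiple of 3. The leading chain used the upstream acceptor in 22 of the 36 pairs. Genes with a pair 3 bases apart included HNRNPA3, an RNA-binding protein, TFDP1, the dimer partner of E2F factors, CPSF6, a cleavage factor of pre-mRNA, SEPT3, a septin, and PTBP2, the splicing regulator of neurons. Both sites of these 36 pairs were listed in 2 pairs in the sensitive, 9 in the early stimulated and 18 in the refractory library.

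**Figure D2:**
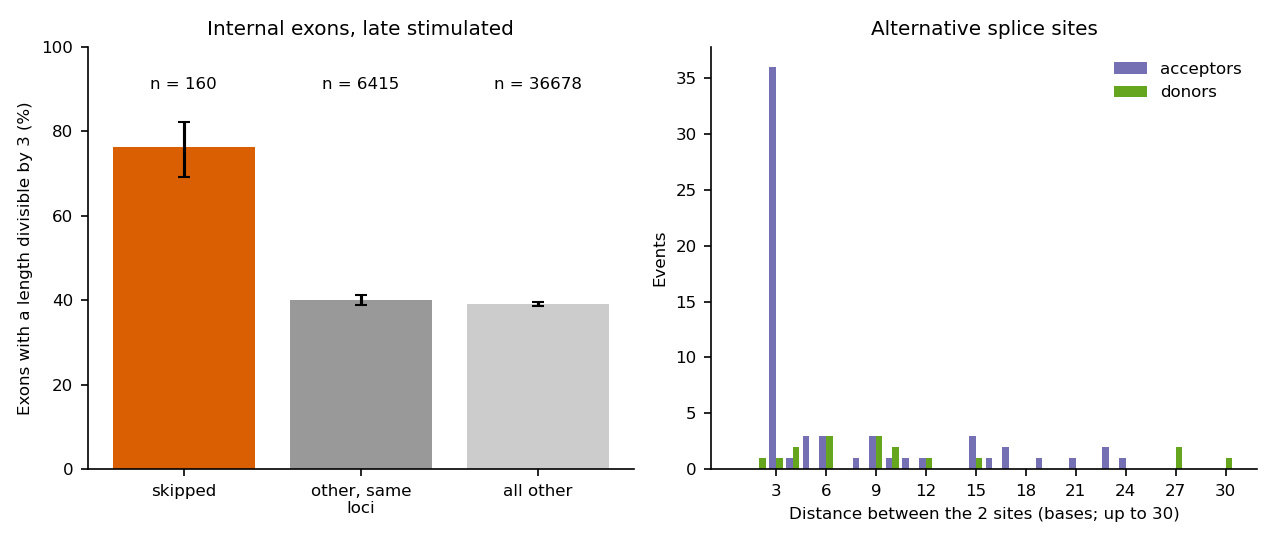
Left, percentage of internal exons with a length divisible by 3 in the late stimulated library, with 95% Wilson intervals as error bars: 76.25% of 160 skipped exons, 40.03% of 6415 other exons of the same loci and 39.2% of 36678 other exons. Right, number of alternative acceptor and donor pairs (y axis) by the distance between both sites in bases; 36 acceptor pairs lie 3 bases apart.

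At HNRNPA3 (JH603193.1, 1744802 to 1756318) both acceptors were listed in all 4 libraries. The form of the leading chain had 278, 249, 455 and 290 FPKM in the sensitive, early stimulated, late stimulated and refractory libraries. The other form had 218, 50.5, 86.5 and 198 FPKM in the same order. The first form thus took 56.0% in the sensitive, 83.1% in the early stimulated, 84.0% in the late stimulated and 59.5% in the refractory library. It was the larger one in each library. At SEPT3 it took 72.8% in the early stimulated, 52.6% in the late stimulated and 69.4% in the refractory library, and neither form was listed in the sensitive library. At TFDP1 the larger form differed, but at low levels. The form of the leading chain took 64.9% in the late stimulated and 41.8% in the early stimulated library. The early stimulated share rests on 10.99 FPKM against 15.3 FPKM for the other form. An unannotated transcript under 12.5 FPKM is not listed in that library. Only the form of the leading chain was listed in the sensitive library, at 38.1 FPKM, and in the refractory library, at 19.1 FPKM. The listing limits there are 20.8 and 7.86 FPKM for an unannotated transcript, so the other form is not shown to be absent. At PTP4A1, a protein tyrosine phosphatase, the acceptors lay 6 bases apart, and the leading form took 74.4% in the sensitive library and 96.9%, 97.9% and 96.9% in the 3 later libraries.

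Mutually exclusive exons mostly came in pairs of equal length. In 17 of the 19 pairs both exons had exactly the same number of bases, between 59 and 140, and only 5 of these lengths were divisible by 3. Whether the paired exons resemble each other in sequence was not tested. The pair of GRIA4, a subunit of the AMPA-type glutamate receptor, has 115 bases in each exon (JH603213.1, 6142944 to 6143058 and 6150047 to 6150161). In mammals the receptor genes of this family are known for such a pair, named flip and flop. The exon of the leading chain had 26.8, 51.1 and 46.1 FPKM in the early stimulated, late stimulated and refractory libraries, while the other exon had 28.0 FPKM in the early stimulated and 5.11 FPKM in the late stimulated library and was not listed in the refractory library. Of the FPKM of both forms, the upstream exon, which is that of the leading chain, thus took 90.9% in the late stimulated and 48.9% in the early stimulated library. The 5.11 FPKM lies below the 5.84 FPKM from which the late stimulated library lists an unannotated transcript. The whole locus had 67.5, 72.8 and 84.7 FPKM in the early stimulated, late stimulated and refractory libraries. Part of it thus lay in transcripts counted for neither exon, and an unlisted exon is not a measured 0. GRIA4 was not listed in the sensitive library.

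At DCUN1D5, a factor of cullin neddylation, a pair of 71 bases each took different shares. In the sensitive library only the exon of the leading chain was listed, at 60.2 FPKM. An unannotated transcript under 20.8 FPKM is not listed there. The exon of the leading chain took 65.1% in the early stimulated, 81.0% in the late stimulated and 42.1% in the refractory library. The refractory library was the only one in which the other exon was the larger form, with 34.2 FPKM against 24.9 FPKM. At CRMP1, a phosphoprotein of growing axons, both exons have 121 bases and had shares close to each other, at 47.7%, 56.4% and 50% for the leading form in the early stimulated, late stimulated and refractory libraries. In the refractory library both forms were listed at the same value, 75.9 FPKM. An unnamed locus on JH603175.1 (5236479 to 5254852) had a pair of 110 bases listed in all 4 libraries. Its leading form took 51.8%, 65.7%, 59.8% and 62.7% from the sensitive to the refractory library.

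Inclusion of a skipped exon was then followed by its flanking introns, as the FPKM of transcripts with both introns over the FPKM of these and of the transcripts with the skipping intron. The 126 loci gave 146 such events, 128 with 1 exon and 18 with several exons skipped together. The inclusion form was found in a transcript matched to the flycatcher annotation in 33 events and the skipping form in 9. Both forms were listed in 7 events in the sensitive, 42 in the early stimulated and 54 in the refractory library, and 76 events had both forms in the late stimulated library only. Median inclusion where both forms were listed was 53.6% in the sensitive, 49.0% in the early stimulated, 50.8% in the late stimulated and 44.5% in the refractory library. Each median is over a different set of events, so no difference between libraries is read from them.

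Between the late and early stimulated libraries inclusion differed by 20 percentage points or more in 8 of 42 events (19.0%), with 3 higher and 5 lower in the late stimulated library and a median absolute difference of 11.7 points. Between the refractory and late stimulated libraries 15 of 54 events (27.8%) passed that size, 7 higher and 8 lower in the refractory library, with a median of 12.7 points. Between the refractory and early stimulated libraries, neither of which chose the loci, 4 of 28 events (14.3%) passed it, 2 in each direction. Between the late stimulated and sensitive libraries 2 of 7 (28.6%) passed it. These percentages are the background against which the single exons below are read.

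Exons whose inclusion differed by less than 20 points among the 3 deeper libraries included those of SEPT7, a septin of the cytoskeleton, of SH3GLB1, known as endophilin B1, and of RASA3, a GTPase-activating protein of Ras. The exon of SEPT7 has 21 bases (JH603267.1, 1765006 to 1765026). Its inclusion form had 48.3, 48.8 and 34.7 FPKM in the early stimulated, late stimulated and refractory libraries, against 322, 553 and 457 FPKM for the skipping form, which is 13.02%, 8.11% and 7.05% inclusion. In the sensitive library only the skipping form was listed, at 280 FPKM. A transcript with the exon at the listing limit would give 9.09% inclusion there, which lies within the range of the other libraries. At SH3GLB1 (JH603224.1, 5627024 to 5628537) a 24-base exon came together with an upstream exon of 39 or 87 bases. The shorter combination took 16.6%, 15.2% and 12.7% in the early stimulated, late stimulated and refractory libraries, and the longer took 17.4%, 15.4% and 25.02%. In the sensitive library only the skipping form was listed, at 219 FPKM, with a limit of 9.09% for each combination, which lies below each of these values. The 48-base exon of RASA3 took 39.1%, 34.4% and 27.8% in the same 3 libraries.

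The exons of AGFG1 and PPP3CB differed by more than 20 points between the refractory and late stimulated libraries. The 48-base exon of AGFG1, a protein of vesicle traffic that mice need to form the acrosome of sperm, lies at JH603178.1, 3249597 to 3249644. Its inclusion form had 65.7, 40.2 and 17.8 FPKM in the early stimulated, late stimulated and refractory libraries, and its skipping form had 22.2, 12.4 and 43.3 FPKM. Inclusion was 74.7% and 76.5% in the stimulated libraries and 29.1% in the refractory library. The 27-base exon of PPP3CB, the beta isoform of the catalytic subunit of calcineurin, went the other way, with 39.3% in the refractory and 13.4% in the late stimulated library. Only its skipping form was listed in the early stimulated library, at 88.9 FPKM, where the listing limit allows up to 12.3% inclusion. The 2 adjacent exons of RGS7, a regulator of G protein signalling in neurons, took 40.3% in the early stimulated, 53.1% in the late stimulated and 33.2% in the refractory library. The 69-base exon of CASK took 53.0%, 65.7% and 53.1% in the same order. The 88-base exon of RILPL1, a protein that binds Rab GTPases, took 64.3%, 80.8% and 59.1%. In RGS7, CASK and RILPL1 the late stimulated library was thus the highest of the 3, by less than 20 points over the early stimulated library in each. Over the refractory library it was higher by more than 20 points at RILPL1 and by less than 20 points at RGS7 and CASK. The skipping form of RILPL1 had only 18.4, 10.7 and 13.1 FPKM in the early stimulated, late stimulated and refractory libraries.

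Several exons had both forms in the late stimulated library and only 1 form in 1 or more other libraries. The 147-base exon of UBE3A, a ubiquitin ligase known from Angelman syndrome, took 48.1% in the early stimulated and 20.8% in the late stimulated library. It was not listed in the refractory library, where the limit is 24.9%, above the late stimulated value. The 231-base exon of EPRS, the glutamyl-prolyl-tRNA synthetase, took 55.4% in the late stimulated library. Only its inclusion form was listed in the other libraries, at 46.3, 156 and 193 FPKM in the sensitive, early stimulated and refractory libraries. A skipping form at the listing limit would leave inclusion at 69.0% in the sensitive library and at 90.9% in both the early stimulated and the refractory library. A pair of adjacent exons of STRN3, a striatin, was skipped together and took 53.7% in the late stimulated library, while only the skipping form was listed in the sensitive, early stimulated and refractory libraries, with limits of 28.6%, 39.6% and 24.8%. Counted over all events with 1 listed form, the limit lay 20 points or more from the late stimulated value in 15 of 47 events (31.9%) in the sensitive library, in 20 of 80 (25%) in the early stimulated library and in 26 of 78 (33.3%) in the refractory library. All 146 events were chosen by having both forms in the late stimulated library. That choice alone favours events with 1 form elsewhere, so these counts are descriptions and not differences between states.

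The sensitive library was the least informative, and the few events that could be followed there did not go in 1 direction. Of its 54 events with any form, 27 had the skipping form only and 20 the inclusion form only. None of the 16 events of 27 bases or less had both forms in that library, 4 had only the skipping form and 1 only the inclusion form. Both forms were listed in 7 of these events in the early stimulated library, with a median inclusion of 61.6%, in all 16 in the late stimulated library, with a median of 50.6%, and in 8 in the refractory library, with a median of 71.0%. These medians are over different sets of events, so no difference between libraries is read from them. An unnamed locus on JH603211.1 with an exon of 153 bases (199318 to 199470) took 46.3%, 22.0%, 42.4% and 31.7% from the sensitive to the refractory library. An unnamed locus on JH603272.1 with an exon of 167 bases (2905775 to 2905941) took 77.5% in the sensitive, 52.6% in the early stimulated, 50.2% in the late stimulated and 34.3% in the refractory library. EIF4G2, a translation factor, had 89.98% inclusion of a 114-base exon in the late stimulated and 86.7% in the sensitive library. An exon of 84 bases on JH603223.1 (4149136 to 4149219) took 28.3% in the sensitive and 88.6% in the late stimulated library. Only its inclusion form was listed in the early stimulated and refractory libraries, with limits of 87.1% and 90.9%. Of the 7 events followed between the late stimulated and sensitive libraries, 1 was higher and 1 lower by 20 points or more. The neuronal markers (0 of 6 named in the sensitive library), the photoreceptor markers (0 of 6) and depth (120.5 Mb, the lowest) moved with the listing of these forms. Their part in the differences was not tested.

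**Figure D3:**
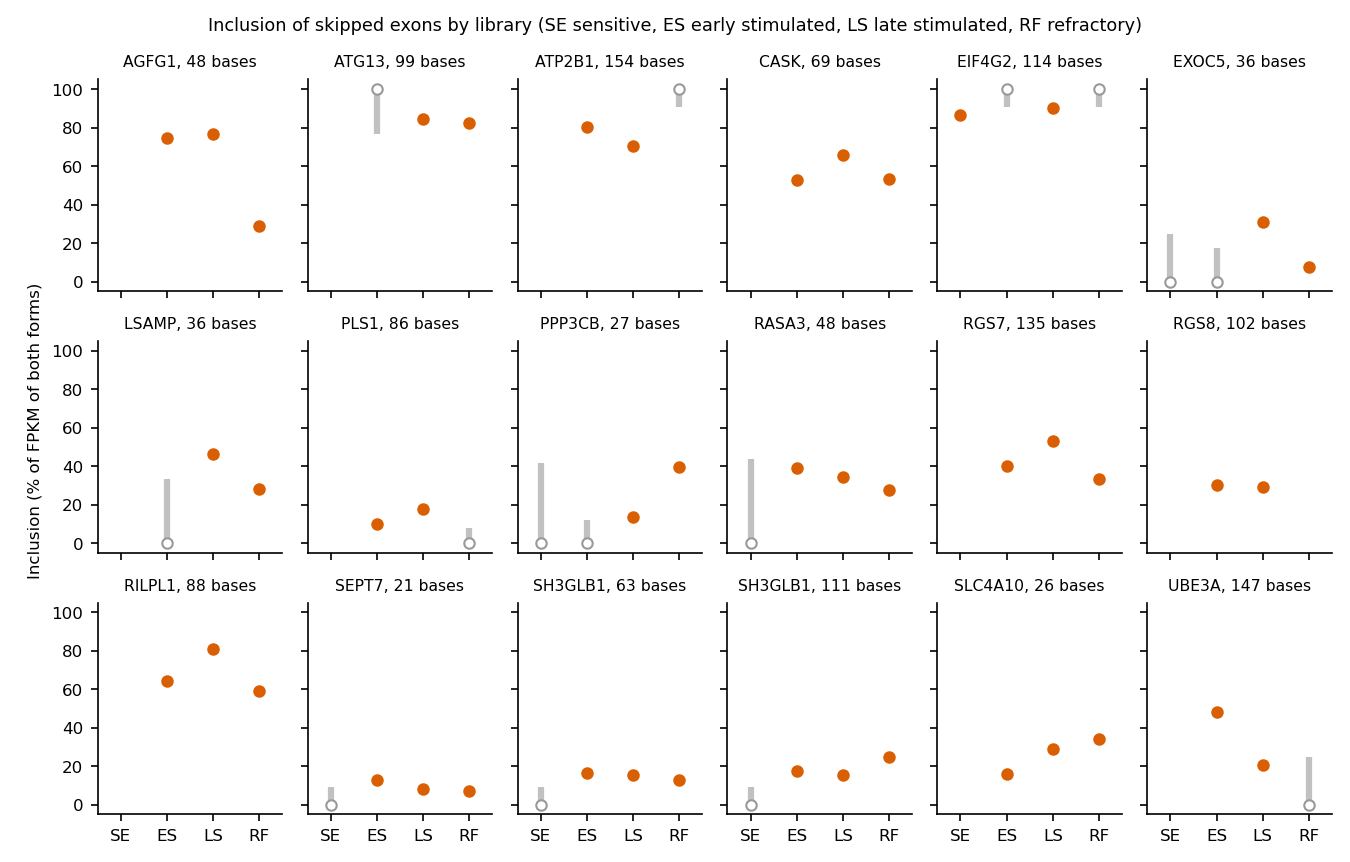
Inclusion of skipped exons (y axis, percent of the FPKM of both forms) in each library (x axis) for the 18 events of loci with a gene symbol that had both forms in 2 or more libraries. Filled points had both forms listed; open points had 1 form, with a grey bar to the value that a transcript at the listing limit would give; an empty place means that neither form was listed. AGFG1 was at 29.1% in the refractory library and at 76.5% in the late stimulated library.

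Alternative first exons gave 255 events and alternative last exons 215. The alternative exons were joined to the same splice site in 62 and 57 of them. A median of 7.77 kb separated both first exons and 4.78 kb both last exons. Followed by the intron next to the end exon, the leading first exon differed in share by 20 points or more in 3 of 29 events (10.3%) between the late stimulated and sensitive libraries, in 22 of 98 (22.4%) between the late and early stimulated libraries and in 30 of 122 (24.6%) between the refractory and late stimulated libraries. Last exons passed that size in 4 of 44 (9.09%), 14 of 98 (14.3%) and 17 of 111 (15.3%) events for the same pairs.

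EIF5, an initiation factor that acts at start codon recognition, had 2 first exons joined to the same splice site, 1472 bases apart (JH603184.1, 6507213 to 6516359). The first exon of the leading chain had 334 FPKM in the late stimulated and 142 FPKM in the early stimulated library and was not listed in the sensitive and refractory libraries. The other first exon, that of the flycatcher transcript, had 364, 165, 53.9 and 251 FPKM from the sensitive to the refractory library. The form of the leading chain took 86.1% in the late stimulated and 46.4% in the early stimulated library and was listed in the stimulated libraries only. At CKB, the brain-type creatine kinase, 2 first exons 377 bases apart took nearly equal parts: the leading form had 646 FPKM in the late stimulated library and the other 591 FPKM. The leading form took 69.7% in the early stimulated, 52.2% in the late stimulated and 60.5% in the refractory library. In the sensitive library only the leading form of CKB was listed, at 38.5 FPKM. An unannotated transcript under 20.8 FPKM is not listed there.

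At CISD1, an iron-sulfur protein of the outer mitochondrial membrane, both first exons were listed in all 4 libraries and took 49.6%, 54.6%, 50.1% and 49.9% for the leading form. OAZ1, the antizyme that binds ornithine decarboxylase, had 95.8%, 96.9%, 98.9% and 98.1% in 1 first exon at 764 to 1852 FPKM in all. SYNCRIP, an RNA-binding protein, took 53.4% in the late stimulated and 19.1% in the early stimulated library for its leading first exon. That exon was not listed in the sensitive and refractory libraries, where an unannotated transcript under 20.8 and 7.86 FPKM is not listed. It is therefore not shown to be absent there.

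Among last exons, those of GPM6B, a proteolipid of neurons and glia, lie 309 bases apart and took 62.2%, 58.6% and 68.0% for the leading form in the early stimulated, late stimulated and refractory libraries. In the sensitive library only its leading form was listed, at 48.4 FPKM, with the same listing limit of 20.8 FPKM for an unannotated transcript. FGF12, an intracellular fibroblast growth factor homologue that acts on sodium channels, took 55.9%, 61.2% and 53.0% in the same 3 libraries. RAB28, a small GTPase of photoreceptors and other cells, took 31.2%, 65.1% and 33.9%, so that its late stimulated library had the other last exon as the smaller form. The leading form was chosen in that library, which favours this order. The last exon of CASK took 76.0%, 50.2% and 86.6%, again with the late stimulated library apart. CCT8, a chaperonin subunit, had both last exons in all 4 libraries at 49.4%, 51.7%, 53.0% and 57.8%. AZIN1, the inhibitor of antizyme, likewise had both last exons close to equal, with 49.3%, 46.1%, 50.5% and 53.3% for the leading one.

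Whole intron chains were found again far less often than their introns. A chain counts only when 1 transcript has all its introns, which by itself favours this order. Of the 2053 chains, 16.0% were listed with every intron in the sensitive, 32.0% in the early stimulated and 34.6% in the refractory library. Chains of loci with 1 spliced transcript were found in 21.8%, 36.5% and 39.0%. Of the 8079 introns of the member loci, 46.5%, 80.3% and 84.5% were listed in the same libraries. Leading chains were found more often than further chains, at 42.5% and 28.2% in the refractory library. They were chosen by their higher FPKM and listing needs a minimum level, so this order is favoured by the choice. Transcripts that joined introns of 2 or more member loci made up 29 of 856 in the sensitive, 74 of 1489 in the early stimulated and 97 of 1693 in the refractory library.

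Shares of whole chains could be compared where 2 or more chains of a locus were listed in both libraries. The share of a chain is its FPKM over the FPKM of all spliced transcripts there that share an intron with the locus. Only chains listed in both libraries of a pair were compared. The largest difference of any such chain reached 20 points in 12 of 51 loci (23.5%) between the late stimulated and sensitive libraries. Between the late and early stimulated libraries it did so in 36 of 150 (24.0%). For the refractory and late stimulated libraries it did so in 52 of 178 (29.2%). Between the refractory and early stimulated libraries, which did not choose the loci, it did so in 16 of 69 (23.2%). The median largest difference was 10.6, 10.7, 11.1 and 8.24 points. These pairs share libraries with each other, so their counts are given side by side only.

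**Figure D4:**
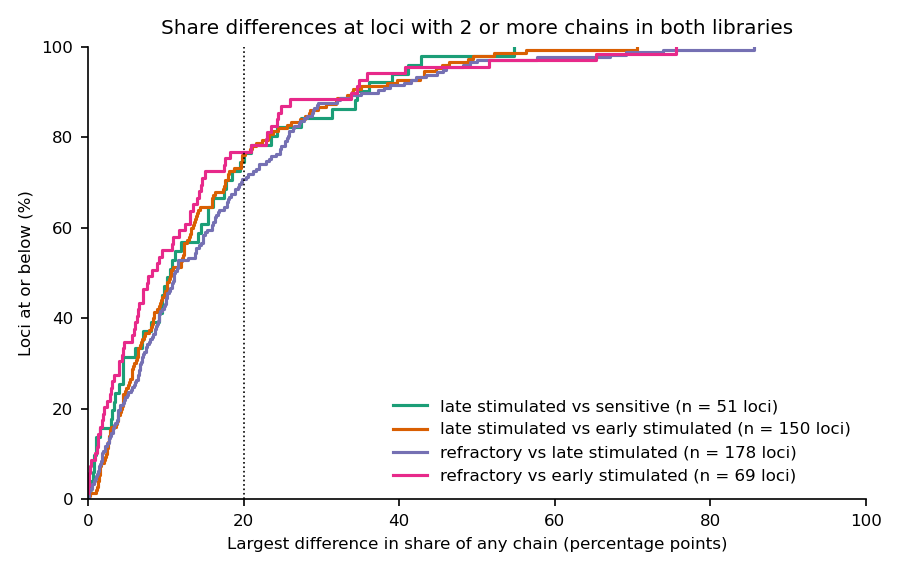
Cumulative percentage of loci (y axis) by the largest difference in share of any chain listed in both libraries, in percentage points (x axis), for 4 pairs of libraries. The dotted line marks 20 points, and 23.2% to 29.2% of the loci lie at or beyond it.

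The chain with the highest share differed between libraries, among chains listed in both, at 4 of 51 loci (7.84%) for late stimulated against sensitive and at 29 of 150 (19.3%) for late against early stimulated. It differed at 33 of 178 (18.5%) for refractory against late stimulated and at 11 of 69 (15.9%) for refractory against early stimulated. With a lead of 10 points or more asked for in each library, the counts were 0, 9, 13 and 5 for the same pairs. Chains of nearly equal share changed order at CISD1, OLFM1 and AZIN1. The count for refractory against late stimulated includes CRMP1, where both chains held 50% in the refractory library. The count for late stimulated against sensitive includes an unnamed locus on JH603219.1, where both held 50% in the sensitive library.

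CBX3, a heterochromatin protein, lies at JH603174.1, 9634811 to 9647085. Its leading chain of 5 exons had 243 FPKM in the early stimulated, 181 FPKM in the late stimulated and 16.3 FPKM in the refractory library. A chain of 4 exons that is contained in it, with a start inside an exon, had 75.04, 14.1, 33.0 and 69.4 FPKM from the sensitive to the refractory library. That chain held 5.49% in the early stimulated, 11.9% in the late stimulated and 81.0% in the refractory library and was the only chain listed in the sensitive library. The locus as a whole had 85.7 FPKM in the refractory and 278 FPKM in the late stimulated library.

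HNRNPDL, an RNA-binding protein, was the named locus with the largest difference (JH603188.1, 6510150 to 6514336). A chain of 8 exons held 97.9% of 1659 FPKM in the refractory and 12.4% of 1473 FPKM in the late stimulated library. In the late stimulated library 4 chains shared the locus, and the leading one, with 3 exons, held 30.9%. The further chains differ from the leading one by ends inside an exon, by 1 chain being contained in the other, or by an alternative donor. HNRNPA2B1 is a further RNA-binding protein of this family. Its leading chain of 11 exons held 66.7% in the sensitive, 6.53% in the early stimulated, 51.3% in the late stimulated and 71.8% in the refractory library. The last exon of that chain, followed by its intron, took 100%, 91.1%, 85.8% and 90.9% of the FPKM of the listed forms. In the early stimulated library the chain with the other last exon held 8.94%, and the rest of the locus lay in chains not listed in the late stimulated library. At CKB, too, the whole leading chain held 8.98% there although its first exon took 69.7%.

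MAP7D2, a microtubule-binding protein, had 21.4% in a chain of 12 exons in the late stimulated and 67.8% in the early stimulated library. YTHDC1, a nuclear reader of methylated adenosine in RNA, had 7.03% in its chain of 17 exons in the late stimulated and 52.6% in the early stimulated library. COPS4, a subunit of the COP9 signalosome, had 59.8% in its leading chain in the late stimulated and 35.4% in the early stimulated library. VLDLR, the very low density lipoprotein receptor, had 41.7% in a chain of 18 exons in the late stimulated and 96.5% in the sensitive library, the largest difference of that pair at 54.8 points. NONO, an RNA-binding protein of paraspeckles, had 35.5% in a chain of 4 exons in the late stimulated and 74.6% in the sensitive library. In MAP7D2, YTHDC1, VLDLR and NONO the chains differ in their first or last exons or in their ends, with no internal event.

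Among loci with no gene name, a locus on JH603185.1 (6306300 to 6427924) had acceptors 84 bases apart. Its leading chain held 30.4% in the early stimulated, 82.6% in the late stimulated and 34.3% in the refractory library. A locus on JH603248.1 (3371367 to 3387143) had alternative first exons, and the second chain held 85.4% in the refractory and 27.8% in the late stimulated library. The locus ENSFALG00000008847 had 20.7% in its leading chain in the early stimulated, 91.3% in the late stimulated and 17.3% in the refractory library. Leading chains were chosen by their level in the late stimulated library, which by itself favours a lower share elsewhere.

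**Figure D5:**
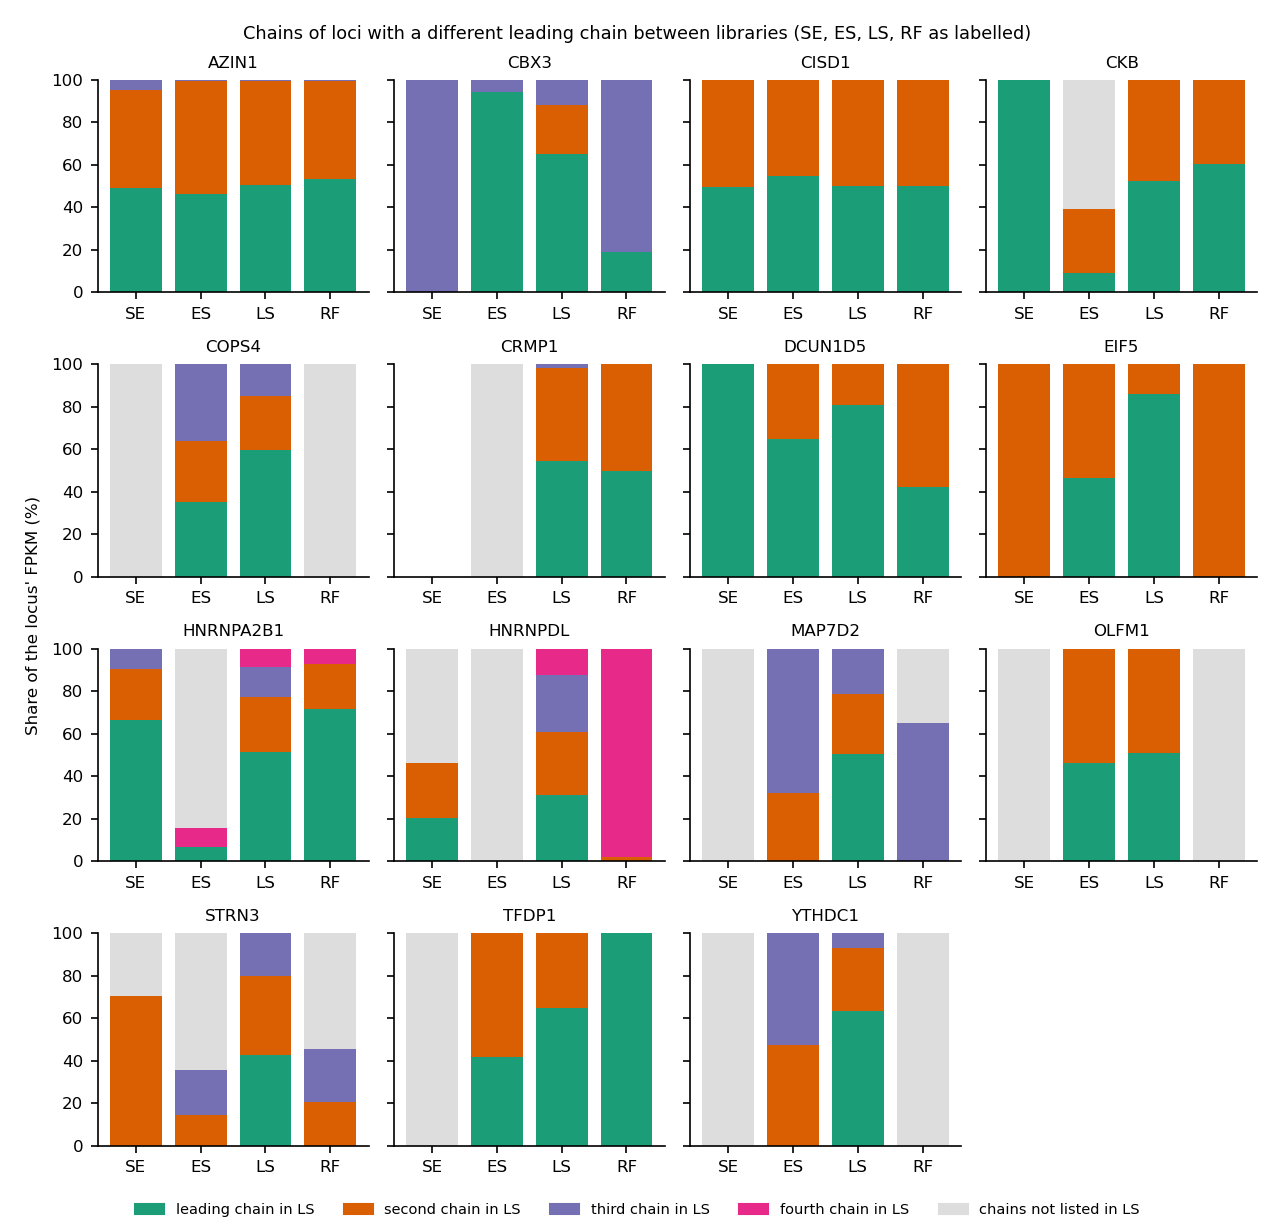
Share of the locus' FPKM (y axis, percent) held by each chain in the sensitive (SE), early stimulated (ES), late stimulated (LS) and refractory (RF) libraries, for loci with a gene symbol whose leading chain differed in a pair other than late stimulated against sensitive. Grey marks chains not listed in the late stimulated library, and no bar means that the locus was not listed; CISD1 and AZIN1 keep nearly equal chains while CBX3 and EIF5 do not in all libraries.

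Among the most abundant named members, CALM3, a calmodulin gene, had 311, 1295, 2248 and 1753 FPKM from the sensitive to the refractory library. Its leading chain of 6 exons held 67.8% in the late stimulated and 93.4% in the early stimulated library. YWHAB, a 14-3-3 protein, had 993, 799, 789 and 828 FPKM. Its chain of 5 exons was the only one listed in the sensitive and early stimulated libraries. The chain of 6 exons, which contains it, held 76.1% in the refractory and 96.5% in the late stimulated library. DDX5, an RNA helicase, had a chain with a retained intron that held 42.7% in the late stimulated and 32.6% in the sensitive library and was not listed in the early stimulated and refractory libraries. SRSF6, a splicing factor, had 88.5% in its chain of 4 exons in the early stimulated, 90.2% in the late stimulated and 71.0% in the refractory library.

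In 18 loci 2 or more chains were listed in all 4 libraries, and the widest range of a chain's share over them had a median of 19.9 points (3.09 to 64.4). ARL6, a small GTPase of cilia, was near the narrow end, with 92.7%, 94.4%, 97.2% and 93.3% in its leading chain from the sensitive to the refractory library. The leading chain of RBX1, a RING subunit of cullin ligases, held 89.4%, 97.6%, 96.4% and 98.0%. In the same order, the further chain of ARL6 had 2.54, 5.45, 1.85 and 5.90 FPKM. That of RBX1 had 12.8, 2.04, 1.72 and 1.65 FPKM. All these values lie below the level from which the same library lists an unannotated transcript.

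As whole loci, 878 members were listed in both the refractory and late stimulated libraries, 846 in both stimulated libraries and 586 in the late stimulated and sensitive libraries. In log2(FPKM + 1), 119 members (13.6%) were higher and 66 (7.52%) lower by 1 or more in the refractory than in the late stimulated library. All spliced loci gave 20.7% higher and 4.44% lower for that pair. For late against early stimulated 58 members were higher and 87 lower, or 6.86% and 10.3% of the members. All spliced loci gave 2.60% higher and 17.1% lower there. For late stimulated against sensitive 131 members were higher and 95 lower, or 22.4% and 16.2%, where all spliced loci gave 8.26% and 36.0%. The rule chose the loci by their listing in the late stimulated library, so nothing is read from these counts. The median difference of all spliced loci was 0.30 for refractory against late stimulated, -0.27 for late against early stimulated and -0.61 for late stimulated against sensitive, in log2(FPKM + 1). Scaling by the median of ratios turned the order of higher and lower for refractory against late stimulated (60 higher, 116 lower) and for late against early stimulated (103 higher, 56 lower).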

How the data were processed

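RNA-seq of 4 libraries, 1 per testicular state, was available as assembled transcripts. Per the labels' protocols, Tri reagent gave the total RNA from frozen, powdered tissue, and Illumina libraries were made from it. The submitters' processing notes list Trimmomatic; which aligner was used is not stated there. Per the file headers, each library was assembled on its own with StringTie 1.3.3b under the flycatcher annotation of Ensembl 89. Libraries are called by their labels, although the header abbreviation of the sensitive one differs from its title. The deposited values are FPKM, TPM and coverage per transcript and other attributes in text form, none of them a count. FPKM was used as the authors deposited it, without scaling, and total aligned bases were taken from coverage over FPKM. Whether strand was kept is not given.

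Transcripts with 2 exons or more were matched between libraries by scaffold, strand and exact intron positions. Skipped exons and end exons were followed by their flanking introns. Names came from a locus' own flycatcher match or from an intron shared with a named transcript in another file. The listing limit is a coverage of 2.5 or 10% of the strongest transcript. The analysis used Python 3.11.15, NumPy 2.4.6 and SciPy 1.17.1, and the code was tested on simulated data. There was no test of significance, because each state has 1 library.

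The members, the gene lists and the rule for named loci were chosen with earlier results of these data known. The rule took loci with a switch and a name, the 8 with the largest share differences per pair, the 8 most abundant named loci, those with most chains, up to 4 per event class, and list members. Skipped exons, first and last exons, tandem acceptors and loci listed in all 4 libraries were named after their values were seen, and so were counts followed by introns. Some loci that the rule names are not reported here. Alternatives are given in the closing section.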

Additional observations from a re-analysis of the deposited data

How the results depend on the processing

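Under the alternatives tried, 53 recomputed values stayed close to the reported one (counts within 1.5 times) and 33 moved further. The number of member loci counts among the 53, but only just. It went from 917 to 612 with contained chains left out, to 659 with transcripts at 10 FPKM or more, and to 803 with only transcripts not matched to the flycatcher annotation. Loci with a share difference of 20 points or more were 12 for late stimulated against sensitive. They became 7 with shares taken over the FPKM of only the chains listed in both libraries. The count was 27 at a threshold of 10 points and 200 with unlisted chains set to 0. The 36 loci for late against early stimulated became 81 at 10 points, 20 at 30 points and 323 with unlisted chains at 0. The 52 loci for refractory against late stimulated became 101, 22 and 340, and the 16 for refractory against early stimulated became 31, 8 and 142. Setting unlisted chains to 0 adds the loci with a chain below the listing limit by construction. Switches with a lead of 10 points or more were 0 of 4, 9 of 29, 13 of 33 and 5 of 11 in the order late stimulated against sensitive, late against early stimulated, refractory against late and refractory against early stimulated, and over every chain the first pair had 7. Skipped exon events at 10 and at 30 points were 4 and 1 (2 at 20 points), 23 and 3 (8), 30 and 5 (15), and 14 and 2 (4) for the same pairs. With chains of 25 FPKM or more, 23.3% were found again in the sensitive, 45.2% in the early stimulated and 45.6% in the refractory library. Scaling by the median of ratios gave 48 lower loci in place of 95 for late stimulated against sensitive, 103 higher and 56 lower in place of 58 and 87 for late against early stimulated, and 60 higher and 116 lower in place of 119 and 66 for refractory against late stimulated, which turned the order of higher and lower in the last 2 pairs. The cause of these shifts was not tested. The comparison of refractory with early stimulated, the count over every chain and the events followed by introns, with their alternatives, were chosen after seeing the data. No paired analysis was possible because each state has 1 library. Depth limits the sensitive library most, where an unannotated transcript under 20.8 FPKM is not listed.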
